A study of Mus musculus with 10 samples.

Results

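The 9 genes described here encode the enzymes that add cytosine methylation to mouse DNA, those that remove it, and their closest partners. They were chosen by name, and all 9 were found among the 47729 genes of the deposited table. Dnmt1, Dnmt3a and Dnmt3b are the DNA methyltransferases, Dnmt3l and Uhrf1 are partners of these enzymes, Tet1, Tet2 and Tet3 are the methylcytosine dioxygenases, and Tdg encodes thymine DNA glycosylase. All 9 passed the filter on low counts, which left 20562 genes for testing. Dnmt3l passed it only through the knockout libraries.

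RNA was sequenced from whole forelimb buds of embryos at E11.5 to E12 of development, in 10 libraries. The 5 knockout embryos carried Prx1Cre together with floxed Cxxc1 on both chromosomes. Prx1Cre is a transgene in which a limb enhancer of Prrx1 drives Cre recombinase in the limb bud mesenchyme, so ectoderm, blood, vessels and migrating muscle precursors are largely outside its reach. Among the 5 controls, control 1 had Prx1Cre and 1 floxed copy of Cxxc1, controls 2 and 4 had 1 floxed copy without Cre, control 3 had both copies floxed without Cre, and control 5 had both copies floxed and a question mark at its Prx1Cre entry. Every embryo of both groups thus had at least 1 floxed copy. Knockouts 1 and 2 shared litter A with controls 1 and 2, and litters B, C and D each gave the knockout and the control numbered 3, 4 and 5. Somite stage averaged 50.0 ± 1.00 in knockouts and 50.2 ± 0.837 in controls (SD, n = 5 each).

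Cytosine methylation in mammals sits mostly on the C of CpG. DNMT3A and DNMT3B place it anew, helped in germ cells by the catalytically inactive DNMT3L, whereas DNMT1 copies it onto the new DNA strand after replication, led there by UHRF1, which binds CpG methylated on a single strand. TET enzymes oxidise methylcytosine stepwise, and TDG excises the more oxidised bases, which base excision repair replaces with plain cytosine. CXXC1, the product of the deleted gene, binds CpG that lacks methylation and recruits the SET1 complexes that methylate histone H3. Mouse embryonic stem cells without Cxxc1 are known to have less cytosine methylation. Methylation itself was not measured in these libraries, and every value below is a transcript level or a ratio of such levels.

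Because CXXC1 binds unmethylated CpG, the DNA around the start sites of the 3 genes whose transcripts differed between the groups is shown for its CpG content. The windows are RefSeq sequences of GRCm38.p6, running from 250 bases before the start to 50 bases after it, 5′ to 3′ on the strand of the gene. Capitals mark every CpG and all other bases are in lower case. The first Dnmt3a window lies at chr12:3806730-3807029 (plus strand, 46 CpG), the Tet2 window at chr3:133544341-133544640 (minus strand, 57 CpG) and the first Dnmt3l window at chr10:78042037-78042336 (plus strand, 6 CpG).
Dnmt3a: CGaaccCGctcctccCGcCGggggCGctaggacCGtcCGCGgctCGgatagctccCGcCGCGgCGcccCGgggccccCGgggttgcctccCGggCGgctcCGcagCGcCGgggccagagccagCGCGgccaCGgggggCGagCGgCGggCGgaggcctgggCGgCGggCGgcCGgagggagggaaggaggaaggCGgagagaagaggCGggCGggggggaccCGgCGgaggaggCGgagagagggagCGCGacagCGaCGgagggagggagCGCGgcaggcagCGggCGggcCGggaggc
Tet2: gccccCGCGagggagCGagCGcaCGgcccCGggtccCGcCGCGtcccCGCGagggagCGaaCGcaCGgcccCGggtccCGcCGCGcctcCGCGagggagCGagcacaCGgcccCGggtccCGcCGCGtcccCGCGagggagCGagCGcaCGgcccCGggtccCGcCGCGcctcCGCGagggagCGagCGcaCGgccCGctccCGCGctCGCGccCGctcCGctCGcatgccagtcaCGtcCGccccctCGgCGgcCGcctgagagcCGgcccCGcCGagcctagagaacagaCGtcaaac
Dnmt3l: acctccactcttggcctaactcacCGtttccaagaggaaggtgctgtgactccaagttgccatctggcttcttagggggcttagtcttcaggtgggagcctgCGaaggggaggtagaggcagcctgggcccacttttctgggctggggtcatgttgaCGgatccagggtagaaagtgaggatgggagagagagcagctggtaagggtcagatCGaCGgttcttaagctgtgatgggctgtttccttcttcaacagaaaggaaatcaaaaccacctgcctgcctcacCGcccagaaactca
The first pair is dense in CpG along almost the whole window, and the Tet2 window holds a CpG-rich stretch that recurs several times in near-identical form. The Dnmt3l window has long runs without any.

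Over 32817 RefSeq windows of this length the median was 7 CpG, with quartiles of 3 and 20. The Dnmt3a window shown held more CpG than 98.3% of them, the Tet2 window more than 99.8% and the Dnmt3l window more than 43.6%. A later Dnmt3a window, at chr12:3891494-3891793, held only 18 CpG, more than 70.3% of all windows and below the upper quartile. The 9 genes had 16 windows in all, and Dnmt3b (30 CpG), Tdg (26) and Tet3 (22), whose transcripts were not called different, also lay above the upper quartile in their single windows. Tet1 had 17. The most CpG among the windows of genes not called was 33, in a window of Dnmt1 and of Uhrf1. Any part of CpG content in the changes of these genes was not tested. The motif TTTNNCGC, a form of the site bound by E2F cell cycle factors, was searched on both strands and found in 5.16% of all windows. Among the 9 genes only Dnmt1 (3 matches, all in 1 of its windows) and Uhrf1 (1 match in each of its windows) held it. A match of these letters is a description of the window and not evidence of binding.

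**Figure D1:**
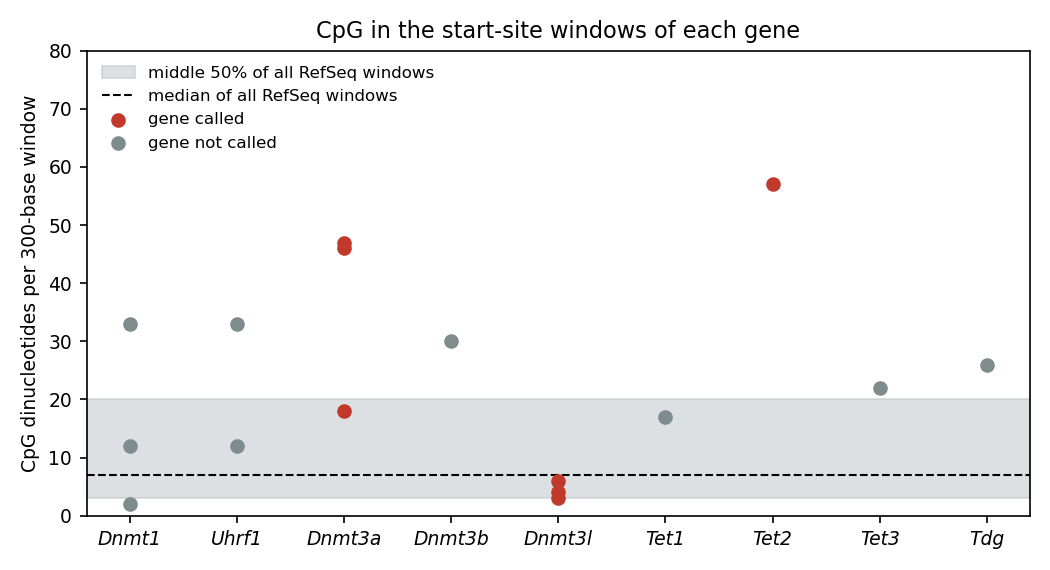
CpG dinucleotides in each RefSeq start-site window (vertical axis, CpG per 300 bases) of the 9 genes (horizontal axis), 1 point per window, in red for genes called different between knockout and control buds and in grey for the others. The grey band spans the quartiles of all 32817 windows (3 to 20) and the dashed line is their median of 7. Tet2 at 57 and Dnmt3a windows at 46 and 47 stand far above the median. A further Dnmt3a window at 18 lies inside the band, and the 3 Dnmt3l windows lie below the median.

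Total counts per library ran between 33274855 and 49881126. A count of 0 allowed a level of up to 0.0573 to 0.0905 CPM (counts per 1000000 of the scaled library), taking 3 counts as the limit, for counting error only. Cxxc1 itself was at 75.0, 75.8, 76.2, 75.8 and 73.1 CPM in the knockout libraries, against 91.4, 95.4, 105.8, 101.6 and 89.5 CPM in the control libraries, with no overlap. This count covers the whole transcript unit and does not resolve the deleted part. All 8 limb mesenchyme markers were detected in every library, as the label of the tissue requires. Of those, 5 fell and 0 rose, and their summed level was 1147 to 1281 CPM in knockouts and 2042 to 2166 CPM in controls. All 10 macrophage markers rose (213 to 249.9 CPM summed in knockouts, 57.9 to 71.2 CPM in controls), as did 6 of 10 ectoderm markers (538 to 642 CPM, against 299 to 489 CPM), 7 of 8 endothelial markers (318 to 369 CPM, against 254 to 295 CPM), 7 of 8 erythroid markers (2846 to 5817 CPM, against 2328 to 2733 CPM) and 5 of 7 muscle precursor markers (111 to 204 CPM, against 96.2 to 121 CPM). Of 6 neural crest and Schwann cell markers, 2 fell and 0 rose (50.2 to 56.7 CPM summed in knockouts, 51.1 to 59.2 CPM in controls). All 12 p53 target genes rose, with summed levels of 1664 to 1935 CPM in knockouts and 386 to 428 CPM in controls. Over all genes tested, 18.1% were called higher and 17.1% lower in knockouts. None of the markers of these cell types was at 0 in any library. In bulk RNA of a whole bud, fewer cells of a type and less RNA per cell cannot be told apart, and the part of these shifts in the results below was not tested.

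Of the 9 genes, Dnmt3a and Tet2 fell in the knockout, Dnmt3l rose and 6 were not called, at a Benjamini-Hochberg adjusted p below 0.05 in edgeR's quasi-likelihood test over all genes. Over all 20562 genes the same test called 35.2%, made up of 18.1% of all genes higher and 17.1% lower in knockouts, so 3 of 9 (33.3%) is close to the share among all genes. Dnmt3l entered the test only through the group in which it is high, and without it the test called 2 of 8. Scaling by library size alone made 62.2% of all called genes higher in knockouts, against 51.3% with the scaling used here, and shifted the median log2 fold change of all genes to 0.05, against -0.00087. The groups did not overlap for 3 of the 9 genes, where 25.3% of all genes had no overlap (13% with knockouts higher and 12.4% with knockouts lower). The median log2 fold change of the 9 genes was -0.06.

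**Figure D2:**
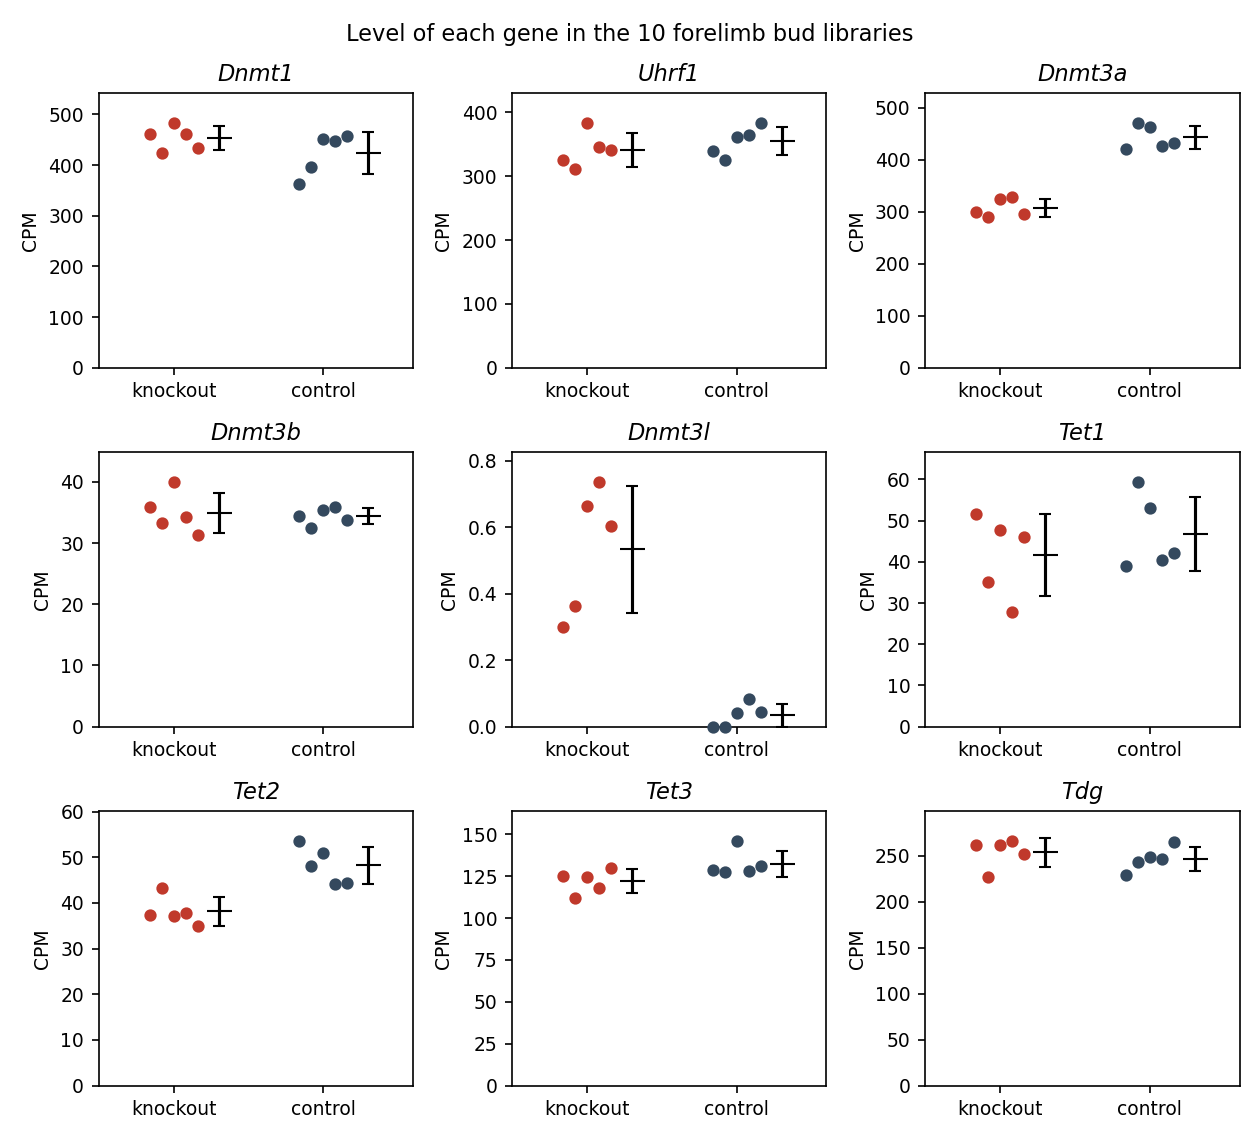
Level of each of the 9 genes (vertical axis, CPM, starting at 0 in each panel) in the 5 knockout libraries (red, left) and the 5 control libraries (dark blue, right), 1 point per library in the order of their numbers, with the mean and SD in black. Knockout points lie below every control point for Dnmt3a and Tet2 and above every control point for Dnmt3l; the groups overlap for the other 6 genes.

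Maintenance methylation was represented by Dnmt1 and Uhrf1, both highly expressed, and neither differed between the groups beyond the spread of the libraries. Dnmt1 (ENSMUSG00000004099, chr9:20907209-20959888, minus strand, GRCm38) was at 462, 425, 483, 461 and 433 CPM in knockouts and at 364, 396, 451, 448 and 458 CPM in controls. The 2 lowest libraries were the controls of litter A, while the other 3 controls lay among the knockouts. Its log2 fold change was 0.10 (SE 0.07, 95% interval -0.05 to 0.24, edgeR quasi-likelihood, Benjamini-Hochberg adjusted p = 0.298), and an exact two-sided permutation test of its CPM gave p = 0.222. Within litters the log2 difference was 0.22 in A, 0.10 in B, 0.04 in C and -0.08 in D.

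Uhrf1 (ENSMUSG00000001228, chr17:56303321-56323486, plus strand) was at 325, 312, 383, 346 and 341 CPM in knockouts and at 340.0, 326, 362, 365 and 384 CPM in controls. The groups overlapped along nearly their whole range, with the highest knockout from litter B and the highest control from litter D. The log2 fold change was -0.06 (SE 0.06, 95% interval -0.19 to 0.08, edgeR quasi-likelihood, Benjamini-Hochberg adjusted p = 0.524).

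Dnmt1 and Uhrf1 are transcribed mainly in dividing cells, so each was also set against genes of the cell cycle. Of 20 genes of G1/S and replication, 1 rose, 5 fell and 14 were not called (median log2 fold change -0.06), with Tyms, which makes thymidylate, at -0.31 and Rrm1, a subunit of ribonucleotide reductase, at -0.29. Their summed level was 3712 ± 124 CPM in knockouts and 3931 ± 215 CPM in controls (SD, n = 5 each). Of 18 genes of G2/M and mitosis, 13 fell, 0 rose and 5 were not called (median -0.21), and the sum was 4265 ± 63.6 CPM in knockouts and 5030.0 ± 169 CPM in controls (SD, n = 5 each). The called share was 30% of the G1/S genes and 72.2% of the G2/M genes, against 35.2% of all genes tested. The mitotic sums of the groups did not overlap, unlike the levels of Dnmt1 and Uhrf1.

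Relative to the G1/S sum, Dnmt1 was higher in knockouts. Per 100 CPM of these genes, Dnmt1 was at 12.8, 11.9, 12.4, 12.2 and 11.7 CPM in knockouts and at 9.29, 10.5, 12.2, 10.9 and 10.9 CPM in controls. Control 3 lay among the knockouts and the other 4 controls lay below all of them. The means were 12.2 ± 0.421 in knockouts and 10.8 ± 1.04 in controls (SD, n = 5 each), with an exact two-sided permutation p of 0.0317, which became 0.0556 without control 1, without knockout 1 or without knockout 3. With the G2/M genes as the measure instead, Dnmt1 stood at 10.6 ± 0.571 in knockouts and 8.43 ± 1.01 in controls (SD, n = 5 each), without overlap and at an exact permutation p of 0.00794, the smallest that 5 against 5 can give. The denominator fell in knockouts, so this ratio combines both changes.

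For Uhrf1 the ratio to the G1/S genes was 9.19 ± 0.426 CPM per 100 CPM in knockouts and 9.04 ± 0.460 in controls (SD, n = 5 each, exact two-sided permutation p = 0.564). Against the G2/M genes it was 8.01 ± 0.602 in knockouts and 7.07 ± 0.573 in controls (SD, n = 5 each, exact permutation p = 0.0397), and the groups overlapped. The choice of denominator therefore decided whether the Uhrf1 ratio passed the threshold.

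Among the de novo enzymes Dnmt3a fell in every knockout library and Dnmt3b was not called. Dnmt3a (ENSMUSG00000020661, chr12:3806007-3914443, plus strand), the main de novo methyltransferase of somatic tissue, was at 299, 289, 325, 328 and 296 CPM in knockouts and at 421, 471, 463, 426 and 433 CPM in controls. The highest knockout stood well below the lowest control. The mean was 307 ± 17.7 CPM in knockouts and 443 ± 22.6 CPM in controls (SD, n = 5 each), 30.6% lower in knockouts. This was a log2 fold change of -0.53 (SE 0.05, 95% interval -0.64 to -0.41, edgeR quasi-likelihood, Benjamini-Hochberg adjusted p = 1.13e-05), and the exact permutation test of its CPM gave p = 0.00794. The change was larger in size than that of 78.6% of all genes tested, while 98.3% of them had a lower mean level. Within litters the log2 difference was -0.60 in A, -0.51 in B, -0.38 in C and -0.55 in D, so the direction was shared by all 4 litters. Among its annotated exon bases 0.799% overlap the antisense gene Dnmt3aos, which had 21 counts summed over knockouts and 23 over controls. The counts are per gene and do not separate the long Dnmt3a isoform from the short one that starts at an internal promoter.

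Dnmt3b (ENSMUSG00000027478, chr2:153649450-153687730, plus strand), the de novo enzyme best known from the early embryo, was at 35.9, 33.3, 40.0, 34.3 and 31.3 CPM in knockouts and at 34.5, 32.5, 35.4, 35.9 and 33.8 CPM in controls. Knockouts spread more widely than controls and enclosed all of them. The log2 fold change was 0.02 (SE 0.07, 95% interval -0.12 to 0.16, edgeR quasi-likelihood, Benjamini-Hochberg adjusted p = 0.846), and 2 litters were higher and 2 lower. Of the 9 genes this was the smallest fitted change.

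Dnmt3b made up a larger share of the summed Dnmt3a and Dnmt3b transcripts in knockouts. Dnmt3b itself was not called (log2 fold change 0.02) while Dnmt3a fell (-0.53), so the share restates the fall of Dnmt3a. It shows no gain of Dnmt3b. Dnmt3b held 10.7%, 10.3%, 11.0%, 9.47% and 9.56% of their summed CPM in knockouts and 7.57%, 6.46%, 7.11%, 7.78% and 7.24% in controls. The groups did not overlap. The mean share was 10.2 ± 0.666% in knockouts and 7.23 ± 0.505% in controls (SD, n = 5 each), a difference of 2.97 percentage points with an exact two-sided permutation p of 0.00794. Corrected for exon length the share was 27.0 ± 1.44% in knockouts and 20.3 ± 1.22% in controls (SD, n = 5 each), so Dnmt3a stayed the more abundant transcript in both groups. This length joins the exons of all annotated transcripts of a gene (16642 bases for Dnmt3a, 5106 for Dnmt3b). It can exceed the length of the transcript expressed, and the corrected share depends on it.

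Dnmt3l (ENSMUSG00000000730, chr10:78041947-78063622, plus strand), the inactive cofactor normally restricted to germ cells and early embryonic cells, was nearly absent in controls and low in knockouts. It had 12, 19, 22, 32 and 29 counts in knockouts and 0, 0, 2, 4 and 2 counts in controls. In CPM these were 0.299, 0.363, 0.664, 0.737 and 0.605 in knockouts and 0, 0, 0.0408, 0.0835 and 0.0450 in controls, where the 2 libraries at 0 allow up to 0.0657 and 0.0696 CPM. Every knockout was above every control, and even the highest knockout was under 1 CPM. The 114 counts of the knockouts against 8 of the controls gave a depth-scaled ratio of 15.1, with an exact 95% interval of 7.41 to 35.8 that covers counting error only. The fitted log2 fold change of 3.83 (SE 0.55, edgeR quasi-likelihood, Benjamini-Hochberg adjusted p = 0.000214) depends on how counts near 0 are treated. With no filter on low counts the adjusted p from edgeR was 0.000159, and the fitted value lay between 3.48 and 5.02 over 24 alternative settings. As the counts of the knockouts alone carried the gene past the filter, the call adds little to the counts themselves. Only 4.30% of genes tested had a lower mean level. Its exons share 67 bases (2.24%) with Aire on the opposite strand, which was at 0.772 ± 0.132 CPM in knockouts and 0.976 ± 0.161 CPM in controls (SD, n = 5 each). The pseudogene Dnmt3l-ps1 had 6 counts summed over knockouts and 15 over controls, so in controls it had more counts than Dnmt3l. How reads were divided between Dnmt3l and this pseudogene was not tested, and the interval of the ratio does not cover it. The summed macrophage, ectoderm, endothelial and erythroid markers given above were likewise higher in knockouts without overlap, and the part of those cells in the rise of Dnmt3l was not tested.

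**Figure D3:**
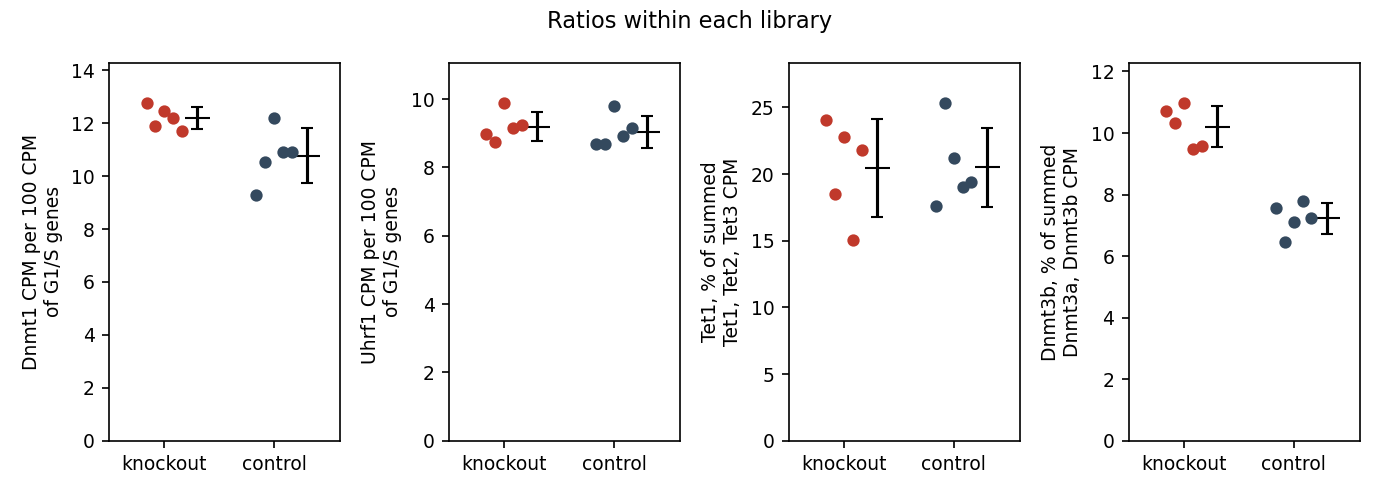
Ratios within each library for knockouts (red, left) and controls (dark blue, right), 5 libraries each, with the mean and SD in black: Dnmt1 and Uhrf1 per 100 CPM of G1/S and replication genes, Tet1 as a percentage of the summed Tet1, Tet2 and Tet3 CPM, and Dnmt3b as a percentage of the summed Dnmt3a and Dnmt3b CPM. Knockouts and controls stand apart in the Dnmt3b share (9.47% to 11.0% against 6.46% to 7.78%) and overlap in the other 3 panels.

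Of the TET genes, Tet2 fell, whereas Tet1 and Tet3 were not called. Tet2 (ENSMUSG00000040943, chr3:133463679-133545139, minus strand), which has no CXXC domain of its own in mammals, was at 37.5, 43.4, 37.2, 37.9 and 34.9 CPM in knockouts and at 53.6, 48.1, 50.8, 44.2 and 44.3 CPM in controls. The groups did not overlap, although knockout 2 came within 1 CPM of the 2 lowest controls. The mean was 38.2 ± 3.12 CPM in knockouts and 48.2 ± 4.10 CPM in controls (SD, n = 5 each), 20.8% lower in knockouts. The log2 fold change was -0.34 (SE 0.07, 95% interval -0.49 to -0.18, edgeR quasi-likelihood, Benjamini-Hochberg adjusted p = 0.0032, exact permutation p = 0.00794). All 4 litters were lower, by log2 differences of -0.33 in A, -0.45 in B, -0.22 in C and -0.34 in D.

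Tet1 (ENSMUSG00000047146, chr10:62804570-62908996, minus strand), a CXXC-domain dioxygenase prominent in embryonic stem cells, varied more between libraries than the other TET genes. It was at 51.5, 35.1, 47.8, 27.7 and 46.1 CPM in knockouts and at 38.9, 59.4, 53.04, 40.5 and 42.25 CPM in controls. The lowest library was knockout 4 and the highest control 2, and the other 8 were mixed. With a log2 fold change of -0.17 the standard error was 0.17 and the 95% interval -0.54 to 0.20 (edgeR quasi-likelihood, Benjamini-Hochberg adjusted p = 0.480), an interval that included 0 and also the value fitted for Tet2. Its share of the summed TET transcripts was 20.5 ± 3.65% in knockouts and 20.5 ± 2.96% in controls (SD, n = 5 each, exact two-sided permutation p = 0.984).

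Tet3 (ENSMUSG00000034832, chr6:83362373-83459084, minus strand), the most abundant of the TET transcripts here, was at 125, 112, 124.5, 118 and 130.1 CPM in knockouts and at 128, 127, 146, 128 and 131 CPM in controls. Knockout 5 lay among the controls, and the other 4 knockouts lay below them all. The log2 fold change was -0.12 (SE 0.05, 95% interval -0.23 to -0.0025). It did not pass the threshold over all genes (edgeR quasi-likelihood, Benjamini-Hochberg adjusted p = 0.107), although an exact two-sided permutation test of its CPM alone gave p = 0.0317. The 4 litters were all lower, by between 0.010 in D and 0.23 in B on the log2 scale. The difference between the Tet2 and Tet3 changes was not tested.

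Tdg (ENSMUSG00000034674, chr10:82629828-82650799, plus strand), whose product excises the more oxidised bases made by the TET enzymes, was at 261, 227, 262, 266 and 252 CPM in knockouts and at 229, 243, 249, 246 and 265 CPM in controls. The lowest and the highest library were both knockouts. The log2 fold change was 0.04 (SE 0.05, 95% interval -0.07 to 0.16, edgeR quasi-likelihood, Benjamini-Hochberg adjusted p = 0.579). Tdg shares 367 exon bases (6.83%) with Glt8d2 on the opposite strand, which was far less expressed, at 4.39 ± 1.66 CPM in knockouts and 7.24 ± 0.885 CPM in controls (SD, n = 5 each). The pseudogene Tdg-ps was at 0.367 ± 0.241 CPM in knockouts and 0.311 ± 0.198 CPM in controls (SD, n = 5 each).

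**Figure D4:**
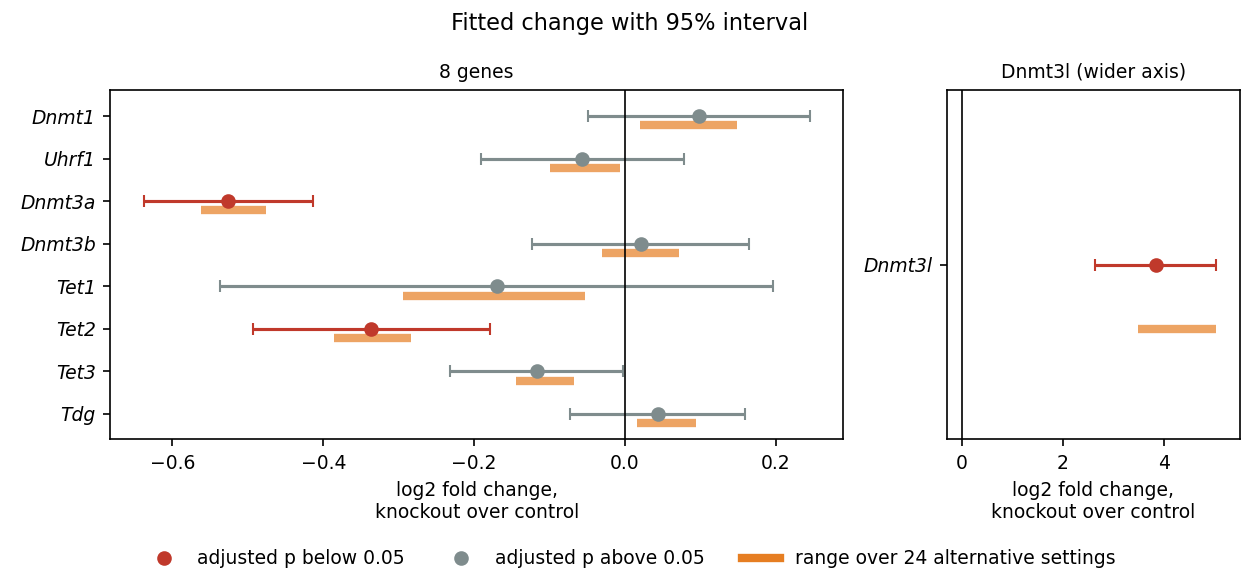
Fitted log2 fold change of knockout over control (horizontal axis) for each of the 9 genes, with its 95% interval as a thin bar; red marks an adjusted p below 0.05 and grey an adjusted p above it. The thick orange bar below each point spans the values over 24 alternative settings: Dnmt3a (-0.53), Tet2 (-0.34) and Dnmt3l (3.83, on its own wider axis) stay on their side of 0, and the bar of Dnmt3b crosses it.

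Levels of different genes were compared as CPM per kilobase of annotated exon. The exon length joins all annotated transcripts of a gene, so the order depends on the annotation as well as on the levels. In knockouts the order was Uhrf1 (80.2 ± 6.35), Dnmt1 (61.4 ± 3.24), Tdg (47.2 ± 2.92), Dnmt3a (18.5 ± 1.06), Tet3 (7.30 ± 0.426), Dnmt3b (6.84 ± 0.644), Tet1 (2.69 ± 0.640), Tet2 (2.26 ± 0.185) and Dnmt3l (0.179 ± 0.0643), all CPM per kilobase as mean ± SD with n = 5. Controls had the same order, with Uhrf1 at 83.4 ± 5.30, Dnmt1 at 57.4 ± 5.62, Tdg at 45.8 ± 2.43, Dnmt3a at 26.6 ± 1.36, Tet3 at 7.92 ± 0.471, Dnmt3b at 6.74 ± 0.265, Tet1 at 3.03 ± 0.579, Tet2 at 2.86 ± 0.243 and Dnmt3l at 0.0113 ± 0.0117 CPM per kilobase (SD, n = 5). Neighbours whose libraries overlapped were Tet3 and Dnmt3b in knockouts, Dnmt1 and Tdg in controls, and Tet1 and Tet2 in both groups. Uhrf1, Dnmt1 and Tdg thus led the order, Tet3 stood near its middle, and Tet1, Tet2 and Dnmt3l came last.

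The genes whose level followed that of each called gene most closely were sought among 10308 genes with a mean of at least 10 CPM, by the root mean square (RMS) difference of log2 CPM, relative to the control mean, over the 10 libraries. Nearest to Dnmt3a were B4galt2, a galactosyltransferase (RMS 0.0583), Tead2, a transcription factor of the Hippo pathway (0.0594), and Idh2, the mitochondrial isocitrate dehydrogenase (0.0616). Nearest to Tet2 were Pias3, a SUMO ligase (0.0630), Phlpp2, a phosphatase (0.0659), and Hoxa11, a limb patterning gene (0.0671). For Dnmt3l, Slc19a2, a thiamine transporter (0.496), Btbd19 (0.551) and C3ar1, a complement receptor (0.558), came first; at its low counts the RMS is large in any case, since it holds the counting error of Dnmt3l. A small RMS says that the levels moved alike in these 10 libraries and nothing of function.

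Genes that work beside the 9 were taken by role from lists chosen with earlier results known. Of 9 tested partners of maintenance methylation, 1 rose, 2 fell and 6 were not called, with a median log2 fold change of -0.06. The called share of 33.3% was close to the 35.2% of all genes tested. Baz2a, a silencing factor of ribosomal DNA, was higher by 0.35 on the log2 scale, and Zfp57, which keeps imprints methylated, and Uhrf2, the relative of Uhrf1, were lower at -0.38 and -0.21. Hells, Lig1, Trim28, Usp7, Cdca7 and Mphosph8 were not called. Of 10 readers of methylated CpG, Mbd2 rose (log2 fold change 0.17, edgeR quasi-likelihood, Benjamini-Hochberg adjusted p = 0.0158) and 9 were not called (median -0.08). That is 10% called, against 35.2% of all genes.

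Among 12 tested genes of demethylation and base excision repair, 3 rose, 2 fell and 7 were not called (median 0.05). The called share was 41.7%, against 35.2% of all genes tested. Gadd45b, a stress-induced gene linked to active demethylation, was at 2.56 ± 0.671 CPM in knockouts and 7.26 ± 0.760 CPM in controls (SD, n = 5 each), which is -1.50. as log2 fold change Its relative Gadd45g went the other way, at 5.90 ± 0.956 CPM in knockouts and 4.11 ± 0.615 CPM in controls (SD, n = 5 each). The glycosylase gene Neil2 was at 3.51 ± 0.174 CPM in knockouts and 1.83 ± 0.212 CPM in controls (SD, n = 5 each), and Neil3, its relative, was lower (log2 fold change -0.28). Smug1, a uracil glycosylase, was called higher at 0.18 (edgeR quasi-likelihood, Benjamini-Hochberg adjusted p = 0.0311), but with the replicate number as a block the adjusted p was 0.0528, and the call was lost in 12 of 24 alternative settings. Xrcc1, Parp1, Apex1, Polb and Lig3, which act after the glycosylase, were not called. Exon bases of Apex1 (61.7%) and Lig3 (25.1%) overlap genes on the opposite strand, so their counts are less certain.

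Of 10 genes that supply or regulate the TET enzymes, 3 rose and 2 fell (median 0.07), so 50% were called, against 35.2% of all genes tested. Those that fell make 2-oxoglutarate, the co-substrate of the TET reaction. Idh1 was at 65.9 ± 7.24 CPM in knockouts and 124 ± 11.9 CPM in controls (SD, n = 5 each), which is -0.91 as log2 fold change, and Idh2 was at 191 ± 11.0 CPM in knockouts and 264 ± 8.68 CPM in controls (SD, n = 5 each), which is -0.47. as log2 fold change Higher in knockouts were D2hgdh, which clears 2-hydroxyglutarate (0.40), and Cxxc5 and Cxxc4 (0.34 and 0.33), CXXC-domain proteins that bind TET2. Ogt, Oga, Ddb1 and Dcaf1 were not called.

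Of 13 enzymes of the methyl donor and one-carbon cycle, 6 rose, 2 fell and 5 were not called (median 0.06). The called share was 61.5%, against 35.2% of all genes tested. Mthfd1, a folate enzyme with several activities, was at 198 ± 7.01 CPM in knockouts and 115 ± 13.0 CPM in controls (SD, n = 5 each), which is 0.79. as log2 fold change Shmt1 (0.38), which moves a carbon from serine to folate, and Mtrr (0.37), which keeps methionine synthase active, were also higher. Mat2b (-0.26), a subunit of the enzyme that makes the methyl donor, was lower. Mtr and Mat2a, the methionine synthase and the catalytic subunit, were not called.

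**Figure D5:**
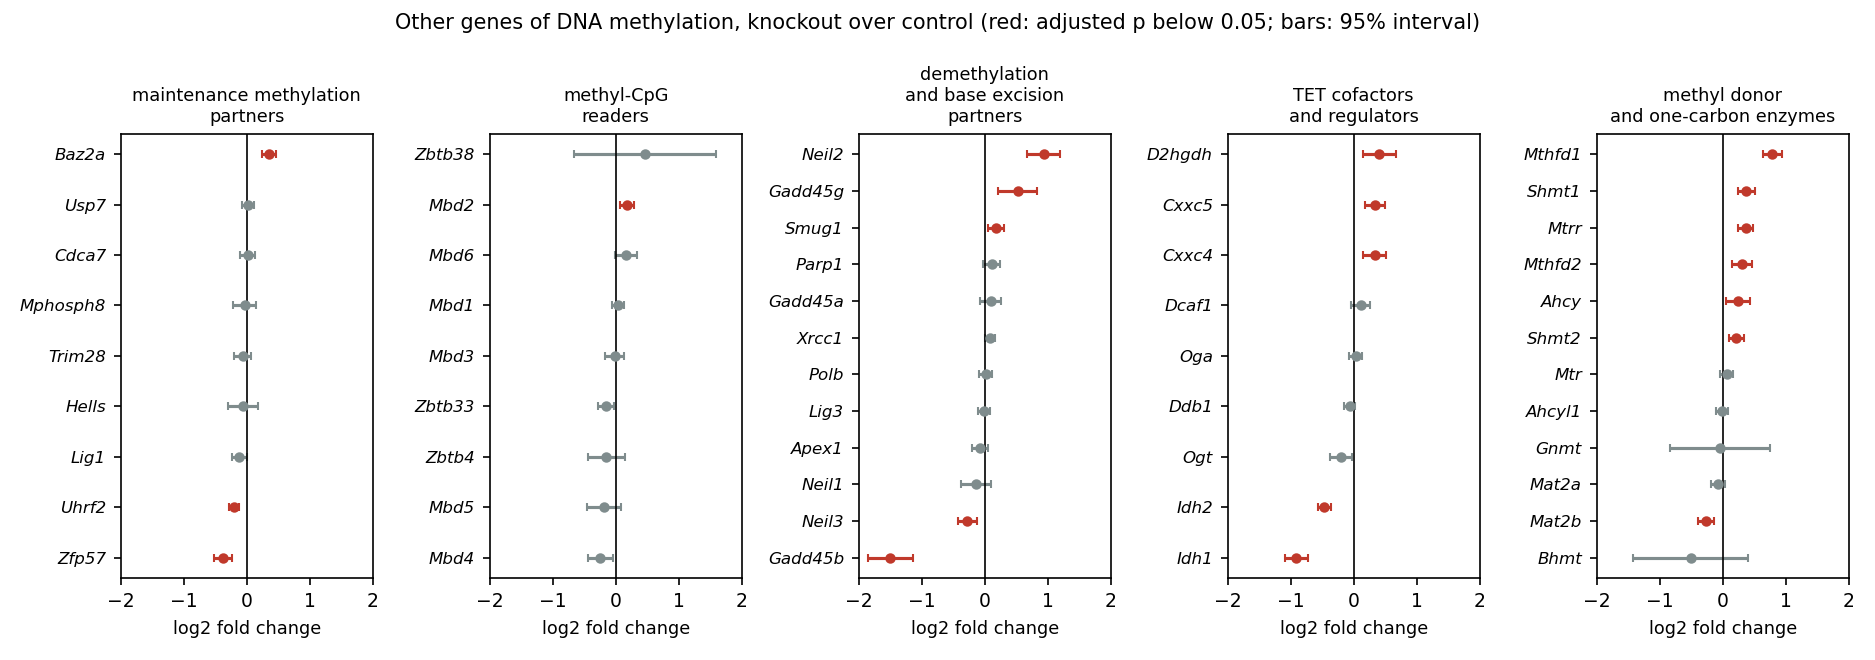
Fitted log2 fold change of knockout over control (horizontal axis, same scale in each panel) with its 95% interval for genes of 5 lists around the 9 genes, sorted by value; red marks an adjusted p below 0.05 and grey an adjusted p above it. Gadd45b (-1.50) and Idh1 (-0.91) lie farthest to the left and Neil2 (0.94) and Mthfd1 (0.79) farthest to the right among the called genes.

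Genes of the germ line whose promoters are normally methylated in somatic tissue were examined as transcripts known to appear when that methylation is lost. Of 20 such genes, 15 were too low to test, with means of at most 0.165 CPM in knockouts and 0.142 CPM in controls. Of the 5 tested, Tdrd9, a helicase of the piRNA pathway, rose by 1.18 on the log2 scale (3.22 ± 0.282 CPM in knockouts, 1.42 ± 0.533 CPM in controls, SD, n = 5 each) and Brdt, a testis bromodomain protein, fell by 0.98 on the log2 scale (1.63 ± 0.469 CPM in knockouts, 3.20 ± 0.339 CPM in controls, SD, n = 5 each). Tdrd1 (log2 fold change 0.44), Ddx4 (0.47) and Sycp2 (-0.02) were not called, at adjusted p-values of 0.181, 0.409 and 0.976 by edgeR quasi-likelihood and Benjamini-Hochberg. The called share of the 5 tested was 40%, against 35.2% of all genes tested. Among the 15 not tested, Sycp3, named after its values were seen, had 26 counts summed over knockouts and 7 over controls, at 0.0954 to 0.181 CPM in knockouts and 0 to 0.0696 CPM in controls, without overlap, and shares 52.2% of its exon bases with Chpt1 on the opposite strand. The summed level of the 20 genes was 12.8 ± 1.57 CPM in knockouts and 10.7 ± 0.982 CPM in controls (SD, n = 5 each), and the ranges overlapped.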

How the data were processed

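The deposited table held estimated counts per Ensembl gene, as made by the authors. The tools listed in the submitters' processing notes are Salmon 0.8.2, R 3.4.1 and DESeq2 1.16.1, with build mm10 and no roles named; the kits were Direct-zol for RNA and TrueSeq for libraries, per the labels' protocols. How estimates were summed to genes and whether strand was used was not given in the sources used here. Whole numbers (within 1e-06) made up only 0.0592% of the nonzero values, which were rounded here. A second deposited table held a signal in which each rounded count is divided by a factor of its library (100% within 0.01 of a count) and was used, on a log2 scale, as an alternative with pseudocounts of 1 and 0.1. No column was left unmapped.

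Symbols came from GENCODE M21 (GRCm38, the assembly of mm10) for 47310 genes, and 419 had none. The filter was filterByExpr (minimum count 10, minimum total 15). TMM scaling preceded the test in edgeR 4.0.16 (quasi-likelihood, R 4.3.3), knockout against control without covariates, with Benjamini-Hochberg adjustment over 20562 genes. The biological coefficient of variation was 16.4%. SE is the absolute log2 fold change over the square root of F. CPM refers to the TMM-scaled library of tested genes. Exact permutation tests enumerated the 252 arrangements of 5 against 5 (smallest p 0.00794). These arrangements ignored litter, and the ratios and shares were not tested with a litter block. DESeq2 1.42.0, limma 3.58.1, other scalings, blocks and left-out libraries were alternatives. The edgeR script was tested on simulated data. Nothing in the labels says that libraries are technical repeats, and p-values set the difference between the groups against the variation among these 10 samples. Chi-square over degrees of freedom was 17.5 to 49.6 for pairs within a group, and no library was a copy of another.

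Groups came from the titles. Same-numbered samples share a litter, per the labels, so the number and the litter were each used as a block. Deviations of same-numbered samples correlated at -0.013, 0.155, -0.025, 0.042 and 0.200. The 9 genes and all lists were chosen with earlier results of these data known. Beside the 9, the text names up to 5 genes per list with the smallest adjusted p, the tested germline genes, the 3 nearest profiles of each called gene and relatives that could share reads; genes named as not called belong to the same lists. Some genes of the lists are counted but not reported by name here.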

Additional observations from a re-analysis of the deposited data

Results flagged for a closer look

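Tet3 in control 3 stood apart from the rest of its group. It was at 146 CPM there, whereas the other 4 controls lay between 127 and 131 CPM, and the gap was 0.806 of the group's whole range, above Dixon's 95% critical value of 0.71. Knockout 3, from the same litter, was at 124.5 CPM. Of 26 groups of 5 libraries examined only this stood apart by that measure, and chance sets apart about 1 in 20. Without control 3 the log2 fold change of Tet3 was still not called. Its adjusted p was at least 0.0742 over the 24 alternative settings of edgeR, DESeq2 and limma.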

How the results depend on the processing

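Over 24 alternative settings Dnmt3a (log2 fold change -0.56 to -0.48, highest adjusted p 0.00242), Tet2 (-0.39 to -0.28, 0.022) and Dnmt3l (3.48 to 5.02, 0.00273) stayed called in edgeR, DESeq2 or limma, whichever the setting used, and the other 6 genes were called in none. For Dnmt3l the repeated call is no separate support. It passed the filter only through the knockout libraries, and all settings reuse the same low counts. With the replicate block by number 3491 genes were higher and 3359 lower, and by litter 3723 and 3591; among the 81 gene results the blocks changed only the call of Smug1. Dropping litter A left 3 knockouts and 3 controls, with 2002 higher and 2021 lower genes instead of 3719 and 3526, and 19 of 81 gene results, none of them among the 9 genes, lost their call, with Mbd2, Gadd45g, Neil3, Smug1, Cxxc4, Cxxc5, D2hgdh and Mat2b among them. Set against the 3 controls lacking Cre alone, 6 lost it. Leaving out 1 library at a time gave 3183 to 3600 genes higher and 3096 to 3428 lower, and 3 to 4 of the 9 genes with an exact permutation p below 0.05. The Dnmt1 to G1/S difference (1.42) ran from 1.05 to 1.78, that of Uhrf1 (0.15) from -0.0196 to 0.337 and was 0.935 with the G2/M denominator, and the Tet1 share (-0.063 points) ran from -0.97 to 1.28. Dnmt3b (0.02) ran from -0.030 to 0.059 and was -0.020 without litter B, a setting chosen after seeing the data, as were those without litters C and D. Sycp2 (-0.02) ran from -0.353 to 0.291 and was 0.021 with library size only, 0.078 with a somite term, 0.688 without litter A, 0.070 without litter D and 0.420 when the 3 controls lacking Cre stood alone. Its counts are few; the cause was not tested. Tdrd1 became called without litter B (0.67, adjusted p 0.0484 in edgeR). Depth limits Dnmt3l in controls and the germline genes too low to test, which lie near the limit of 3 counts.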

Other observations

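Dnmt3c, the germline duplicate of Dnmt3b in rodents (chr2:153696652-153729907, plus strand, GRCm38), had 238 counts in knockout 5 (4.96 CPM) and between 1 and 4 counts in each of the other 9 libraries. It was not tested, since a single library held nearly all of its counts. Dnmt3b in knockout 5 was at 31.3 CPM, the lowest of the 10 libraries.

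Tet2 made up 17.5%, 22.8%, 17.8%, 20.6% and 16.5% of the summed TET transcripts in knockouts and 24.3%, 20.5%, 20.3%, 20.8% and 20.4% in controls. This share was computed after the values were seen and was not tested, and the groups overlapped. The 15 germline genes too low to test had 207 counts summed over knockouts and 172 over controls, with 9 genes higher and 6 lower by raw count.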
